A study of Homo sapiens with 6 samples.

Results

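The 8 genes described here encode subunits of the NCoR, SIN3 and histone deacetylase co-repressor machinery that SKI works with. They are NCOR1, TBL1X, TBL1XR1 and HDAC3 of the NCoR complex, SIN3A and SIN3B, the scaffolds of the SIN3 complex, and the deacetylases HDAC1 and HDAC2. They were taken by name as a set of SKI partners, and all 8 were found among the 56638 gene names of the count table and were among the 16340 genes with enough counts to be tested.

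Co-repressors do not bind DNA themselves. A sequence-specific factor recruits a scaffold, such as NCOR1 in one case and SIN3A or SIN3B in another, and the scaffold brings in histone deacetylases that remove acetyl groups from histone tails. HDAC3 is the catalytic subunit of NCoR complexes and TBL1X and TBL1XR1 are their WD40-repeat subunits, whereas HDAC1 and HDAC2 serve SIN3, NuRD and CoREST complexes. SKI binds SMAD proteins and other factors and links them to these complexes. In myeloid leukaemia, NCoR and SIN3 are known as partners of the fusion proteins that involve RARA and RUNX1.

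The study sequenced polyadenylated RNA of HL60, a human promyelocytic acute myeloid leukaemia line grown in RPMI with 10% fetal calf serum. The knockout group holds 3 libraries of HL60 cells in which SKI was targeted for deletion by CRISPR/Cas9, and the control group holds 3 libraries of HL60 cells that went through a CRISPR/Cas9 control. All knockout titles carry the number 3 and all control titles the number 1 after the group's name; what it counts is not stated, and if each group is 1 line, SKI targeting and any other difference between the lines cannot be told apart. The labels do not describe replicates as separate cultures, and every p-value here rests on a spread among libraries that may be technical. No time or further treatment is given.

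Library totals lay between 47930276 and 58553247 counts. Levels are given as CPM, counts scaled to 1000000 per library. Control replicates 1, 2 and 3 had 63.9, 83.5 and 88.5 CPM of SKI itself, and the knockout replicates had 59.5, 40.7 and 42.0 CPM. SKI mRNA was thus lower but present, and the deleted bases are not named in the labels, so a count over the whole gene does not check the deletion. Of 10 genes that mark HL60 cells, 9 could be tested, and 7 of these fell in the knockout, where 5.63% of all tested genes did. Only 3 fell without control replicate 1, control replicate 3 or knockout replicate 1. In these fits 605 of 16812, 300 of 16631 and 433 of 16826 tested genes fell. Without control replicate 2, 4 of the markers fell, beside 437 of 16602 tested genes. Without knockout replicate 2 or knockout replicate 3, 7 fell, beside 1078 of 16874 and 1066 of 16581 tested genes. After each gene was centred on its 50 nearest genes, 5 fell, where 8.33% of all genes passed in either direction. Of the tested markers on chromosome 19, PRTN3 and AZU1 then kept their calls, at log2 -3.78 and -2.08 (limma adjusted p = 0.00125 and 0.00242). CD33, on the same chromosome, was at log2 -0.04 (limma adjusted p = 0.883). The summed level of the 10 genes was 14010 to 15809 CPM in the control and 3457 to 9896 CPM in the knockout. Most of this sum was MPO, with means of 12745.5 and 4854.3 CPM, and ELANE had 6 counts over all libraries. Of 13 marker genes of T, B, erythroid and non-blood cells, 6 to 9 had no count in a given library, and their sum was at most 6.65 CPM. In RNA of whole cultures, fewer cells of a type and less RNA per cell cannot be told apart. The part of the HL60 marker shift in the values below was not tested.

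Of the 8 co-repressor genes, TBL1X rose, SIN3B fell and the other 6 did not pass the test. TBL1X was 1.61-fold higher and SIN3B 1.73-fold lower in the knockout. The scaffold genes NCOR1 and SIN3A and the deacetylase genes HDAC1 and HDAC3 had estimates close to 0 on the log2 scale, and HDAC2 lay between. Thus 2 of 8 members passed an adjusted p of 0.05 in edgeR's quasi-likelihood test, where 11.8% of all 16340 genes did (6.19% higher and 5.63% lower). Control and knockout values were fully apart for TBL1X, HDAC2 and SIN3B, 3 of the 8 genes, against 32.2% of all tested genes. The median log2 fold change of the 8 was -0.07, beside -0.01 over all tested genes.

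**Figure D1:**
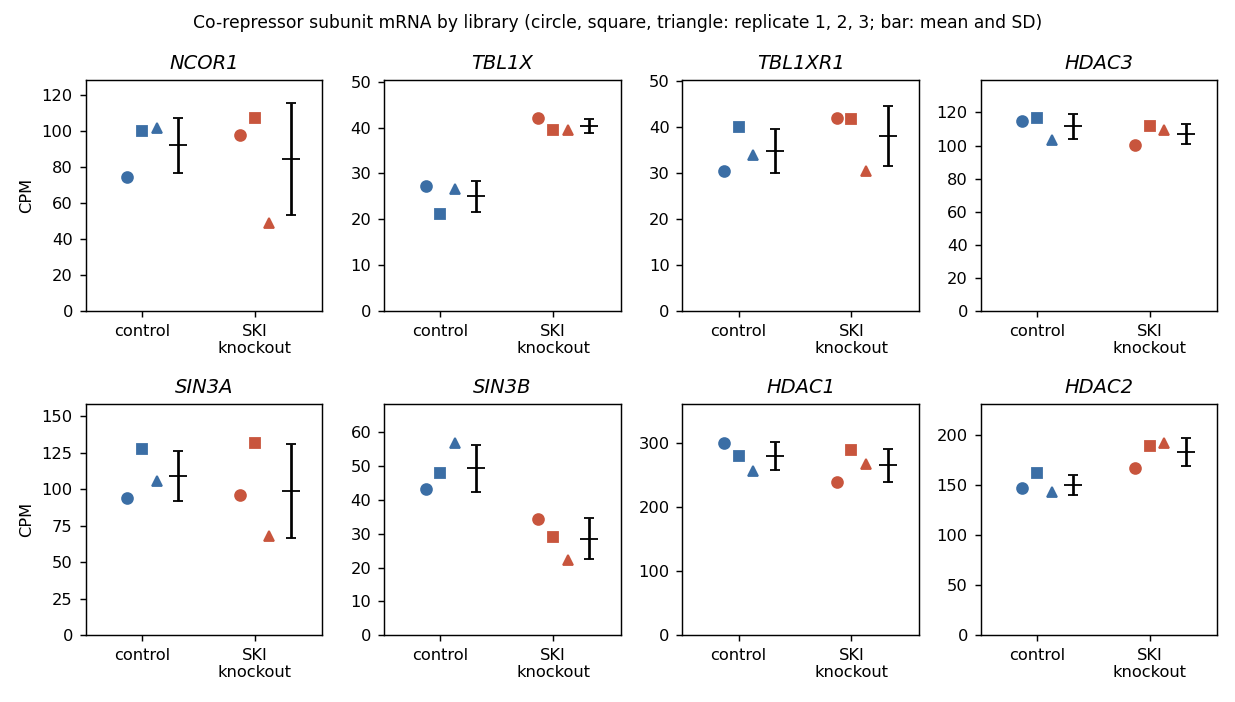
CPM (vertical axis, from 0) of the 8 co-repressor genes in each of 3 control (blue) and 3 SKI knockout (red) libraries, with circles, squares and triangles for replicates 1, 2 and 3 and black bars for the mean and SD. TBL1X and HDAC2 are higher and SIN3B lower in every knockout library, while knockout replicate 3 is the lowest library for NCOR1 and SIN3A.

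Among the NCoR subunits, NCOR1 is the large scaffold that nuclear receptors and other factors contact. NCOR1 levels were 74.2, 99.9 and 102 CPM across control replicates 1, 2 and 3, beside 97.5, 107 and 48.9 CPM across the knockout replicates. The groups overlapped: knockout replicate 2 was the highest of all 6 libraries and knockout replicate 3 the lowest. The log2 fold change was -0.12 (SE 0.25, edgeR adjusted p = 0.798), with a 95% interval from -0.68 to 0.43. Without knockout replicate 3 it was 0.17 (adjusted p = 0.545), so 1 library set the sign.

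TBL1X encodes a WD40-repeat subunit that helps in the exchange of co-repressors for co-activators. Its levels were 27.3, 21.2 and 26.6 CPM across the control replicates, beside 42.0, 39.5 and 39.5 CPM across the knockout replicates. Every knockout library lay above every control library, and the knockout values were the tighter group, with means of 25.0 ± 3.36 and 40.3 ± 1.45 CPM (SD, n = 3). This is a log2 fold change of 0.69 (SE 0.16, 95% interval from 0.34 to 1.03, edgeR adjusted p = 0.0161). Leaving out 1 library ended the call in 3 cases: control replicate 2 (log2 0.58, edgeR adjusted p = 0.0920), control replicate 3 (0.73, 0.0596) or knockout replicate 1 (0.67, 0.0535). In the authors' deposited table TBL1X is at 0.67 on the log2 scale (adjusted p = 0.00233).

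TBL1XR1, the close relative of TBL1X in the same complex, did not show that rise. The control replicates had 30.4, 40.0 and 34.0 CPM of TBL1XR1 and the knockout replicates 41.9, 41.7 and 30.6 CPM. Knockout replicate 3 lay within the control range and the other knockout libraries just above it. For TBL1XR1 the log2 fold change was 0.13 (SE 0.18, edgeR adjusted p = 0.687), with a 95% interval from -0.26 to 0.52.

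HDAC3, the deacetylase that NCoR complexes activate, had the narrowest range of the 8 genes on the log2 scale. Its 6 values ran from 100 to 116 CPM, with means of 112 ± 7.30 CPM in the control and 107 ± 6.01 CPM in the knockout (SD, n = 3). On the log2 scale the fold change was -0.06 (SE 0.14, edgeR adjusted p = 0.834), with a 95% interval from -0.36 to 0.25.

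SIN3A and SIN3B are alternative scaffolds with paired amphipathic helix domains. SIN3A had 93.9, 128 and 106 CPM across the control replicates and 96.4, 132 and 68.0 CPM across the knockout replicates. As for NCOR1, knockout replicate 2 was the highest library and knockout replicate 3 the lowest. The log2 fold change was -0.14 (SE 0.22, edgeR adjusted p = 0.723, 95% interval from -0.63 to 0.34), and without knockout replicate 3 it was 0.08 (adjusted p = 0.810).

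SIN3B had 43.2, 48.0 and 56.8 CPM across the control replicates but 34.2, 29 and 22.2 CPM across the knockout replicates. All knockout libraries lay below all control libraries, with means of 49.3 ± 6.93 and 28.4 ± 6.04 CPM (SD, n = 3). This is a log2 fold change of -0.79 (SE 0.19, 95% interval from -1.20 to -0.38, edgeR adjusted p = 0.0185). SIN3B missed the threshold when control replicate 2 (log2 -0.81, edgeR adjusted p = 0.0588) or control replicate 3 (-0.68, 0.103) was left out. In the authors' deposited table SIN3B is at -0.73 on the log2 scale (adjusted p = 0.00416).

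HDAC1 and HDAC2 are paralogous class I deacetylases that often sit in the same complex. HDAC1 had 301, 280 and 258 CPM across the control replicates and 240, 290 and 267 CPM across the knockout replicates, and the groups overlapped. Its log2 fold change was -0.07 (SE 0.15, edgeR adjusted p = 0.798, 95% interval from -0.41 to 0.26). HDAC2 had 147, 161 and 143 CPM in the control group and 167, 189 and 192 CPM in the knockout group. All knockout libraries lay above all control libraries, yet the log2 fold change of HDAC2, 0.28 (SE 0.14), had an edgeR adjusted p of 0.234 and a 95% interval from -0.03 to 0.60.

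**Figure D2:**
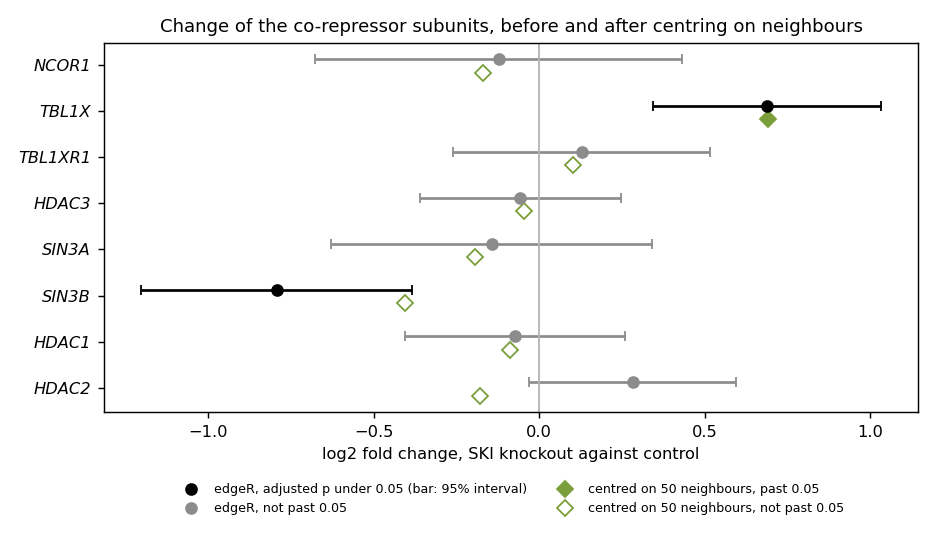
Log2 fold change of SKI knockout against control (horizontal axis) for the 8 genes, as circles with 95% intervals from edgeR and as diamonds after each gene was centred on its 50 nearest neighbours; black and filled symbols have an adjusted p under 0.05. TBL1X keeps its value of 0.69 after centring, SIN3B moves from -0.79 to -0.41, and HDAC2 from 0.28 to -0.18.

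Genes around SIN3B and HDAC2 were shifted as well. SIN3B lies on chromosome 19, where the 50 nearest genes had median log2 values of -0.48, -0.47 and -0.25 against the control mean in knockout replicates 1, 2 and 3. SIN3B itself was at -0.52, -0.76 and -1.14 in these libraries, so it was near its neighbours in replicate 1 and far below them in replicate 3. Centred on its neighbours, SIN3B had a log2 fold change of -0.41 (limma adjusted p = 0.269), and centred on chromosome 19 one of -0.33 (0.332), and in both cases the call ended. In these centred fits 1 of the 8 genes passed, TBL1X, where 8.33% of all genes placed on a chromosome passed with neighbours and 8.74% with chromosomes as the reference. HDAC2 lies on chromosome 6, where its 50 neighbours had medians of 0.50, 0.47 and 0.41 in the knockout libraries and HDAC2 was at 0.16, 0.33 and 0.36. Thus HDAC2 was higher than in the control but below its neighbours in every knockout library, and the centred estimate was -0.18 (limma adjusted p = 0.462).

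The rise of TBL1X was not shared by its surroundings. On chromosome X its 50 neighbours had medians of -0.05, 0.10 and -0.03 in the knockout libraries, and TBL1X was at 0.76, 0.67 and 0.67. After centring on neighbours, the log2 fold change of TBL1X was 0.69 (limma adjusted p = 0.0275), and after centring on the chromosome 0.76 (0.0133). For the other 5 genes, on chromosomes 1 (HDAC1), 3 (TBL1XR1), 5 (HDAC3), 15 (SIN3A) and 17 (NCOR1), the neighbours' mean shift lay between -0.02 and 0.02.

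The libraries differed in a trend with the deposited gene length. Of the members longer than 10 kb, NCOR1, SIN3A and TBL1XR1, but not HDAC2, were low where long genes were low. Among 1160 genes longer than 10 kb, the median log2 deviation from the gene mean was -0.29 in knockout replicate 3 and -0.06 in control replicate 1, and 0.06 to 0.14 in the other 4 libraries. NCOR1 (15393 bases by the deposited gene length) was at -0.90 in knockout replicate 3 against the control mean, and SIN3A (12453 bases) at -0.67. With each library's trend with length removed, these values were -0.54 and -0.33, and the SD of log2 values within the knockout went from 0.62 to 0.40 for NCOR1 and from 0.48 to 0.31 for SIN3A. TBL1XR1 (10614 bases) was at -0.18 in both control replicate 1 and knockout replicate 3. With the trend removed it was at 0.12 in knockout replicate 3, and its knockout SD went from 0.26 to 0.08. HDAC2 (15461 bases) went the other way: it was at 0.36 in knockout replicate 3 and at 0.71 after the trend was removed, and its knockout SD went from 0.11 to 0.29. The median of its protein-coding transcripts is 2084 bases, and which length applies to this trend was not tested. TBL1X and SIN3B, 2 of the 8 genes, kept their calls in that fit, in which 13.8% of all genes passed, with log2 fold changes of 0.76 (limma adjusted p = 0.00914) and -0.73 (0.00939). The removal of the length trend was chosen after the data were examined.

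**Figure D3:**
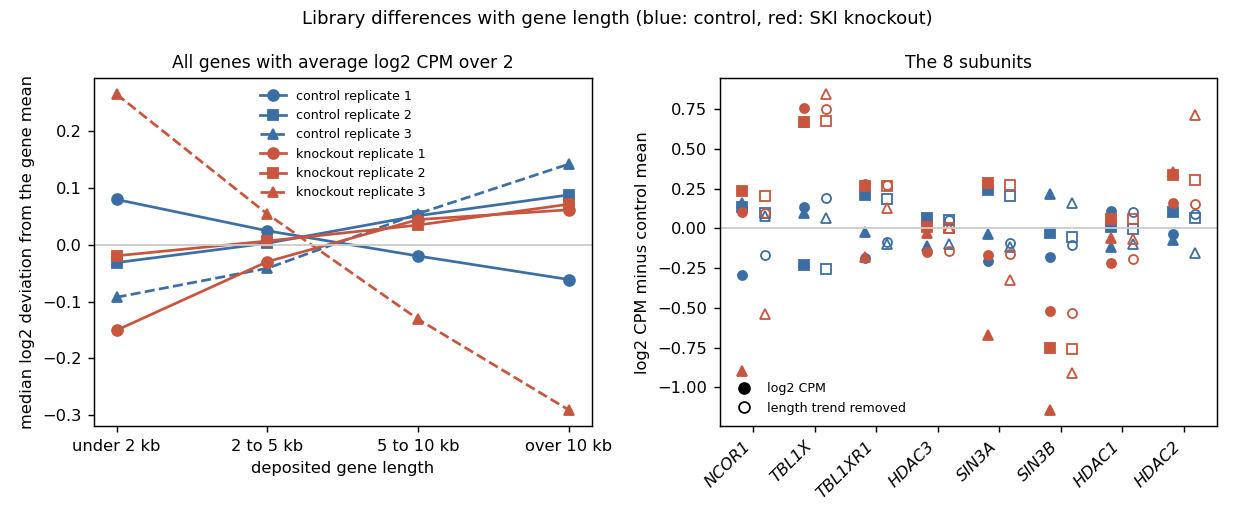
Left, median log2 deviation from the gene mean (vertical axis) by deposited gene length (horizontal axis) for each of the 3 control (blue) and 3 SKI knockout (red) libraries; right, log2 CPM of the 8 genes minus the control mean, as measured (filled) and with the length trend removed (open), with circles, squares and triangles for replicates 1, 2 and 3. Knockout replicate 3 falls from 0.27 for genes under 2 kb to -0.29 for genes over 10 kb, and its NCOR1 value moves from -0.90 to -0.54.

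Ratios of related subunits within a library do not depend on library scaling. With 3 libraries a group the smallest p of the exact permutation test is 0.1, so no ratio could pass 0.05. The log2 ratio of SIN3B to SIN3A, in counts per kilobase, was -0.62, -0.91 and -0.39 in the control libraries and -0.99, -1.68 and -1.11 in the knockout libraries. The groups did not overlap and the difference was -0.62 (exact two-sided permutation p = 0.1, adjusted over the 4 ratios tested 0.133). The log2 ratio of TBL1X to TBL1XR1 was 0.44, -0.32 and 0.24 in the control and 0.60, 0.52 and 0.97 in the knockout, a difference of 0.58 without overlap (exact permutation p = 0.1, adjusted 0.133). By deposited length, TBL1X had the lower level of that pair in control replicate 2 alone, but by transcript length it had the lower level in all 3 control libraries.

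The log2 ratio of HDAC2 to HDAC1 was -2.99, -2.74 and -2.80 in the control and -2.47, -2.57 and -2.42 in the knockout. This difference of 0.36, again without overlap (exact permutation p = 0.1, adjusted 0.133), had the least spread, with SDs of 0.13 and 0.07. A ratio still holds any shift of the region around either gene. The mean shift of the 50 neighbours was 0.46 for HDAC2, 0.01 for HDAC1, -0.40 for SIN3B and 0.01 for SIN3A. For TBL1X and TBL1XR1 it was 0.01 and 0.02. The part of these shifts in the ratio differences was not tested.

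**Figure D4:**
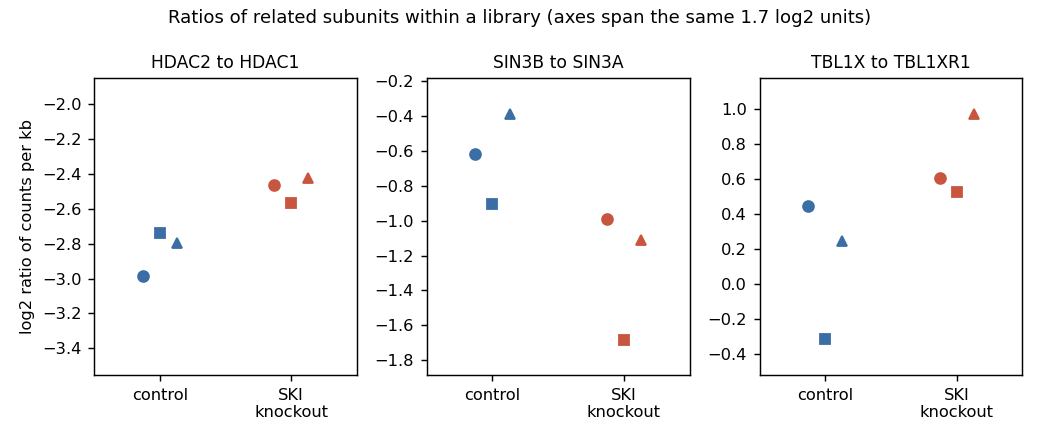
Log2 ratio of counts per kilobase (vertical axis, each spanning the same 1.7 log2 units) for 3 pairs of related subunits in each of 3 control (blue) and 3 SKI knockout (red) libraries, with circles, squares and triangles for replicates 1, 2 and 3. The groups are apart for HDAC2 to HDAC1, SIN3B to SIN3A and TBL1X to TBL1XR1, with differences of 0.36, -0.62 and 0.58. The first gene of each pair had its own groups apart as well.

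Levels of different genes can be compared only per length. In CPM per kilobase of the deposited gene length, the control order was HDAC1 (69.7 ± 5.45, SD, n = 3), HDAC3 (24.1 ± 1.58), HDAC2 (9.72 ± 0.637), SIN3A (8.76 ± 1.38), NCOR1 (5.97 ± 0.996), SIN3B (5.62 ± 0.790), TBL1X (3.57 ± 0.479) and TBL1XR1 (3.28 ± 0.455). The ranges of HDAC2 and SIN3A overlapped, although HDAC2 was the higher in 3 of 3 control libraries. Those of NCOR1 and SIN3B and those of TBL1X and TBL1XR1 overlapped too, with the first of each pair higher in 2 of 3 control libraries. HDAC1 exceeded 96.5% of tested genes on this scale in the control, and TBL1XR1 exceeded 51.8%. HDAC1 and HDAC3 thus had the highest levels of the set on this scale, and the WD40 subunit genes the lowest.

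In the knockout the upper 4 places were the same, and the lower ones were TBL1X (5.76 ± 0.206 CPM per kilobase, SD, n = 3), NCOR1 (5.48 ± 2.02), TBL1XR1 (3.58 ± 0.611) and SIN3B (3.24 ± 0.688). By deposited length, SIN3B thus went from the sixth to the last place and TBL1X from the seventh to the fifth, where TBL1X exceeded NCOR1 in only 1 of 3 knockout libraries. Among the knockout neighbours, HDAC2 and SIN3A no longer overlapped, and every step below SIN3A did.

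The place of HDAC2 depended on the length used. The deposited length of HDAC2 is 15461 bases, while its protein-coding transcripts in GENCODE release 29 have a median of 2084 bases. Per kilobase of that median, HDAC2 came second at 72.1 ± 4.72 in the control and 87.7 ± 6.51 in the knockout (SD, n = 3), above HDAC3 at 56.9 ± 3.73 and 54.7 ± 3.07. HDAC1 remained highest by either length. The share of HDAC2 in the summed per-length level of HDAC1, HDAC2 and HDAC3 was 9.40% ± 0.656 in the control and 11.7% ± 0.437 in the knockout by deposited length, and 27.7% ± 1.52 and 32.8% ± 0.905 by transcript length (SD, n = 3). HDAC2 was higher in the knockout relative to both HDAC1 and HDAC3, so its share is higher there whatever lengths are used. Which length fits the transcripts of HL60 cells was not tested. With transcript lengths, chosen after the data were examined, SIN3B also came before NCOR1 and TBL1XR1 before TBL1X in the control. By these lengths SIN3B went from place 5 to 7 and TBL1X from 8 to 6, and TBL1XR1 was last in the knockout.

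**Figure D5:**
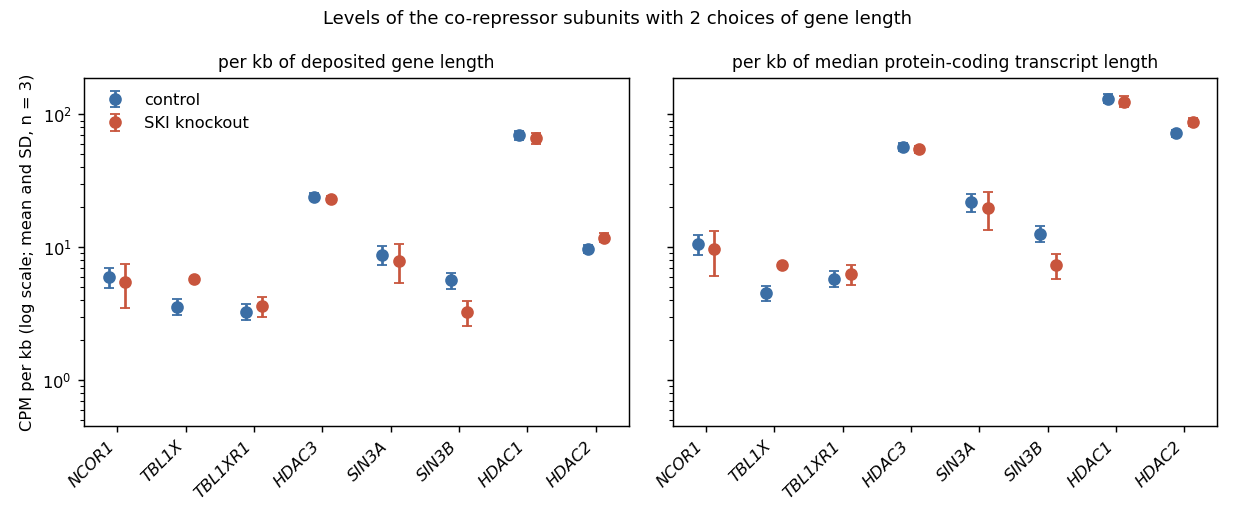
CPM per kilobase (logarithmic vertical axis) of the 8 genes in control (blue) and SKI knockout (red), as mean and SD of 3 libraries, with the deposited gene length on the left and the median protein-coding transcript length on the right. HDAC1 is highest in both panels, and HDAC2 moves from 9.72 to 72.1 in the control when the length changes.

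Reads shared with copies were not visible as counts of those copies. The pseudogenes HDAC1P1, HDAC1P2, NCOR1P1, NCOR1P2 and NCOR1P3 had 2 counts in all, both of HDAC1P2. The handling of shared reads is not stated, so these counts cannot show whether HDAC1 or NCOR1 lost reads that match a copy. Exons of NCOR1 overlap those of PIGL on the opposite strand over 321 bases, and PIGL had 366 to 542 counts a library against 2566 to 5889 for NCOR1. HDAC2, HDAC3, SIN3A and TBL1XR1 overlap antisense RNA genes over 69, 426, 206 and 181 bases, and HDAC1, SIN3B and TBL1X have no such overlap. A strand setting of the counting is not stated in the labels or files, so reads of such pairs cannot be told apart.

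Genes with the most similar pattern over the 6 libraries were sought among 10560 genes of average log2 CPM of at least 2, by the root mean square difference of log2 CPM from the control mean. For SIN3B these were MAPK8IP3 (0.06), RPGRIP1L (0.08) and NDOR1 (0.09). For TBL1X they were MAN1C1 (0.06), FIG4 (0.08) and ITM2C (0.08). None of the 3 genes nearest to SIN3B lies on chromosome 19, and none of those nearest to TBL1X on chromosome X. Chromosome 19 held 693 placed genes of average log2 CPM over 2 and chromosome X 300, a small part of the candidates. Their absence among 3 genes therefore says little about either chromosome.

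Among the other subunits of these complexes, CORO2A had the smallest adjusted p. The counts for each list stand beside 11.8% of all tested genes that passed, 6.19% higher and 5.63% lower. Of the 2 other NCoR complex genes looked up 1 rose, CORO2A, a WD40 coronin found in that complex, from 7.22 ± 1.43 to 29.8 ± 4.26 CPM (SD, n = 3), 4.12-fold higher (log2 2.04, SE 0.20, edgeR adjusted p = 0.000230). It passed without each of the 6 libraries in turn and after centring on neighbours (log2 2.04, limma adjusted p = 0.000144). GPS2, which encodes a small NCoR subunit, was at a log2 fold change of -0.03 (edgeR adjusted p = 0.935).

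The 17 other SIN3 complex genes held 1 that fell and 16 that missed the threshold, and their median log2 fold change was -0.17. The gene that fell was BRMS1L, a paralogue of the metastasis suppressor BRMS1, from 3.56 ± 0.311 to 1.92 ± 0.318 CPM (SD, n = 3, log2 -0.89, edgeR adjusted p = 0.0387). Its call was lost without any library but knockout replicate 3 (edgeR adjusted p 0.0531 to 0.143) and after centring on neighbours (log2 -0.46, limma adjusted p = 0.265). The histone-binding subunit genes RBBP4 and RBBP7, shared with NuRD, were at -0.17 and -0.15 and did not pass.

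HDAC1 and HDAC2 also serve NuRD and CoREST. Of 10 NuRD genes 2 fell, MBD3, which encodes a methyl-CpG-binding domain protein, and GATAD2A, with a list median of -0.16. MBD3 went from 185 ± 11.7 to 102 ± 11.5 CPM (SD, n = 3, log2 -0.85, edgeR adjusted p = 0.00447), and GATAD2A from 258 ± 32.8 to 157 ± 20.5 CPM (SD, n = 3, log2 -0.72, 0.0162). Of 9 CoREST genes 1 fell, HMG20B, an HMG-box subunit, at -0.52 (edgeR adjusted p = 0.0349), with a list median of -0.11. GATAD2A lost its call without control replicate 2 (edgeR adjusted p = 0.0826), control replicate 3 (0.0847) or knockout replicate 1 (0.0507), and HMG20B without any library but knockout replicate 3 (0.0783 to 0.141). All 3 genes lie on chromosome 19, as SIN3B does, and centred on neighbours they were at -0.21, -0.42 and 0.05 and none passed (limma adjusted p = 0.359, 0.241 and 0.848).

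Among deacetylases outside the set, 8 HDAC and 7 sirtuin genes were looked up, of which HDAC11 had 2 counts in all and was not tested. HDAC9, a class IIa enzyme that binds MEF2 factors, rose 2.02-fold, from 5.73 ± 0.498 to 11.6 ± 2.05 CPM (SD, n = 3, edgeR adjusted p = 0.00846). HDAC5, of the same class, fell from 70.8 ± 9.88 to 45.2 ± 3.69 CPM (SD, n = 3, log2 -0.65, edgeR adjusted p = 0.0195). Both kept their calls after centring on neighbours, at 0.99 and -0.73 on the log2 scale, but HDAC5 missed with the trend with GC content removed (-0.49, limma adjusted p = 0.0537). HDAC9 narrowly missed without control replicate 3 (edgeR adjusted p = 0.0501), and HDAC5 without control replicate 2 (0.117), control replicate 3 (0.0647) or knockout replicate 1 (0.0821). The other 5 tested HDAC genes did not pass in edgeR, and the 7 had a median log2 fold change of -0.10. Of these 5, HDAC10 (log2 -0.35, edgeR adjusted p = 0.146) did pass after centring on neighbours (-0.55, limma adjusted p = 0.0320). It also passed after centring on the chromosome (-0.60, limma adjusted p = 0.0223).

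Of the sirtuin genes, whose products are NAD-dependent deacylases, SIRT5 rose (log2 0.80, edgeR adjusted p = 0.0213) and SIRT7 fell (-0.56, 0.0492), with a list median of -0.10. SIRT5 lies on chromosome 6, as HDAC2 does, and was at 0.33 after centring on neighbours (limma adjusted p = 0.344). The SIRT5 call was lost without control replicate 2 (edgeR adjusted p = 0.102), control replicate 3 (0.0970) or knockout replicate 1 (0.0543). That of SIRT7 was lost without any library but knockout replicate 3 (0.0580 to 0.217) and after centring on neighbours (-0.50, limma adjusted p = 0.0840).

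Factors that recruit these co-repressors moved in both directions. Of 23 such genes 22 were tested, of which 1 rose, SKIL, and 6 fell, with a median log2 fold change of -0.13. The 6 include SKI, the targeted gene, and MNT, which was named after its values were seen. SKIL, the relative of SKI that binds the same co-repressors, stood at 2.57, 4.22 and 3.89 CPM in the control and at 15.1, 9.78 and 10.5 CPM in the knockout (log2 1.72, edgeR adjusted p = 0.00193). SKI had a log2 fold change of -0.73 (SE 0.19, edgeR adjusted p = 0.0282), a call lost without control replicate 2 (0.109), control replicate 3 (0.136) or knockout replicate 2 (0.0769). The SKI call was also lost after centring on neighbours (-0.46, limma adjusted p = 0.175).

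RUNX1, a haematopoietic transcription factor, fell from 111 ± 37.8 to 41.4 ± 8.93 CPM (SD, n = 3, log2 -1.43, edgeR adjusted p = 0.00364). It passed without each library in turn and after centring on neighbours (-1.36, limma adjusted p = 0.00335). ZBTB16, the PLZF repressor, was near the lower limit of measurement, at 0.816 ± 0.349 CPM in the control and 0.197 ± 0.118 CPM in the knockout (SD, n = 3, edgeR adjusted p = 0.0203). ZBTB16 missed the threshold without control replicate 2 (edgeR adjusted p = 0.0690), control replicate 3 (0.114) or knockout replicate 1 (0.0988). A count of 3 corresponded to 0.0509 to 0.0627 CPM in these libraries.

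MXD4, a partner of MAX that binds SIN3, fell from 34.7 ± 4.44 to 22.2 ± 0.747 CPM (SD, n = 3, log2 -0.65, edgeR adjusted p = 0.0212). MNT, a MAX partner of the same kind that was named after its values were seen, was at -0.78 (edgeR adjusted p = 0.0483), and its groups overlapped. ZBTB7A, a zinc finger repressor encoded on chromosome 19, was at -0.62 (edgeR adjusted p = 0.0335), and at -0.04 after centring on neighbours (limma adjusted p = 0.908). MXD4 and MNT also lost their calls after that centring, at -0.54 and -0.64 (limma adjusted p = 0.0595 and 0.0783). Without single libraries, MXD4 was lost for 4 of 6 (edgeR adjusted p 0.0530 to 0.118; kept without knockout replicate 2 or 3), MNT for 4 of 6 (0.0749 to 0.222; kept without control replicate 1 or knockout replicate 2) and ZBTB7A for 5 of 6 (0.0622 to 0.159; kept without knockout replicate 3). The SMAD genes SMAD2, SMAD3 and SMAD4, through which SKI meets TGF-beta signalling, lay at 0.09, 0.09 and 0.03 and did not pass.

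Over the 7 lists, 6 tested genes lie on chromosome 19 and all 6 had a log2 fold change below 0, of which 4 passed. Of all 693 genes placed on chromosome 19, 85.9% were below 0, with a median of -0.48. Among the 67 that lie on neither chromosome 19 nor chromosome 6, 3 rose and 8 fell, and 45 were below 0. Over all tested genes, which include those of chromosomes 19 and 6, 6.19% rose and 5.63% fell. The median log2 fold change of the 67 was -0.10, beside -0.01 over all tested genes. The 8 include SKI, the targeted gene, and MNT, which was named after its values were seen. With the GC trend removed, an alternative added after the data were examined, the calls of HMG20B (limma adjusted p = 0.169), SIRT7 (0.154), MXD4 (0.0947), MNT (0.156), ZBTB7A (0.131) and SKI (0.0736) also ended. With library totals as the scale, those of SIRT7 (edgeR adjusted p = 0.0758), SKI (0.0673), MNT (0.0729) and ZBTB7A (0.0520) ended, and with the length trend removed that of SIRT7 (limma adjusted p = 0.0687). Other calls were gained. SIRT6 passed with the length trend removed (log2 -0.59, limma adjusted p = 0.0307) and GFI1 after centring on neighbours (-0.59, 0.0347). With the GC trend removed, 2 recruiting factor genes rose and 2 fell.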

How the data were processed

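The deposited data are RNA-seq libraries of HL60 cells, 3 with SKI knocked out and 3 controls, made with a stranded mRNA kit as the labels' protocols state. Per the submitters' processing notes, TopHat2, Subread, featureCounts, DESeq and DESeq2 were used with hg19 and GRCh37; versions, annotation, strand setting and the handling of shared reads are not stated there. The authors' first table gives raw counts and a length for each gene, and these counts entered every test. A second deposited table gives size-factor-scaled counts, treated as signal, beside log2 fold changes, a test score and p-values. Columns were matched to samples by group and replicate number.

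Genes passing filterByExpr (16340) were scaled by TMM and tested with edgeR's quasi-likelihood test (edgeR 4.0.16, limma 3.58.1, DESeq2 1.42.0, R 4.3.3), group as the only term, Benjamini-Hochberg adjustment over all genes and a threshold of 0.05. Log2 CPM used a prior count of 2. Standard errors and 95% intervals were derived from the F statistic. Ratios used scipy 1.17.1. Centred fits subtracted, per library, the median of the chromosome or of the 50 nearest genes of average log2 CPM over 2 before limma; the lowess span of length and GC trends was 0.3. Chromosomes, order, overlaps and transcript lengths came from GENCODE release 29 by symbol, whose build differs from that of the counts, and coordinates are therefore left out; 84.2% of tested genes were placed. Member counts ran from 1163 to 16510, where the counting SD is at most 2.93%.

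The members, the lists and the other settings were chosen with earlier results of these data known. The text names the 8 members, SKI, SKIL, up to 6 called genes a list, and the 3 nearest genes of each called member; genes that did not pass are named as examples. No library pair of a group was alike within counting noise: 66.5% to 82.7% of well-counted genes differed beyond it. A further gene, its list entry and 1 of the 4 ratios tested are not reported here. The scripts were tested on simulated data.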

Additional observations from a re-analysis of the deposited data

How the results depend on the processing

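Each member was refitted under 20 alternatives, of which 4 (limma without centring, length or GC trends removed, and control replicate 1 and knockout replicate 3 both left out) were chosen after the data were examined. The SIN3B call ended at the threshold with library totals (log2 -0.75, edgeR adjusted p = 0.0500013), where 1725 of 16340 genes passed. It also ended with chromosome centring (-0.33, limma adjusted p = 0.332) and neighbour centring (-0.41, 0.269). So 1 member passed in each of these 3 fits. TBL1X passed in all 14 alternatives that left out no single library. HDAC2 changed sign with chromosome centring (-0.16) and neighbour centring (-0.18), and NCOR1 with control replicate 1 and knockout replicate 3 both left out (0.025). The count over all genes fell from 1932 to 1201 with chromosome centring and 1143 with neighbour centring, which placed fewer genes. It was 2853 with no filter and 2625 in DESeq2. The cause of these changes was not tested.

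Leaving out 1 library gave 740 to 2488 genes and 0 to 2 members, with the fewest genes when control replicate 3 (740), control replicate 2 (932) or knockout replicate 1 (1025) was missing. Log2 fold changes then ran from -0.30 to 0.17 for NCOR1, from -0.13 to 0.0078 for HDAC1 (above 0 without knockout replicate 1), from 0.25 to 0.36 for HDAC2, from -0.11 to 0.00075 for HDAC3 (above 0 without the same library), from -0.38 to 0.084 for SIN3A, from -0.94 to -0.62 for SIN3B, from 0.58 to 0.76 for TBL1X and from 0.04 to 0.28 for TBL1XR1. The 3 subunit ratios given kept their sign without each library, which was fixed in advance because their groups did not overlap.

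With the replicate number as a block, 2107 genes and 2 members passed. Same-numbered libraries deviated together in 1 of 3 pairs: across 10474 genes, which are not independent, the correlations of their deviations were -0.19, 0.42 and -0.10 for numbers 1, 2 and 3, and control replicate 1 was most like knockout replicate 3 (0.54), so the numbers were not used for pairing.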
